A study of Drosophila melanogaster with 4 samples.

Results

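Ribosomal protein genes encode the proteins of the cytoplasmic ribosome. The small subunit proteins (RpS) sit with the subunit that reads the messenger RNA, and the large subunit proteins (RpL) with the one that joins amino acids. These genes are among the most active of any growing cell, and many of their loci in *Drosophila melanogaster* are Minute loci, at which loss of 1 copy slows growth and lets neighbouring cells outcompete the mutant ones. Notch is a receptor whose intracellular part enters the nucleus on activation and acts on target genes through Su(H), which binds their DNA.

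The genes described here are those whose symbol starts with RpL or RpS, and so not the mitochondrial ribosomal proteins, on arms 2L, 3R and X. The rule gave 56 genes, of which 2L has 19, 3R has 23 and the X has 14, out of 10335 genes of the gene table that could be placed on these arms. Over the whole genome 92 symbols of the table start this way, and those on other chromosomes were not analysed here. Of the 56 genes, 26 encode small subunit and 30 large subunit proteins or proteins related to them.

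The measurement is chromatin immunoprecipitation and sequencing of Notch tagged with green fluorescent protein (GFP) in wandering larvae of the third stage (L3). There are 2 libraries made with ab290, a polyclonal anti-GFP antibody raised in rabbit, and 2 libraries of input DNA. All of them carry the strain label Notch-GFP, the genotype label PBac{y[+]-attP-3B}VK00033 and a transgene with the genomic coding region of Notch, with the sex unknown. The protocol text, which all libraries share, names y; bw cn sp flies instead. It gives 25 °C for growth, and 15 min in 1.8% formaldehyde for cross-linking. Whether the replicate libraries stem from different cultures is not labelled, and none of the libraries is from larvae without the tag or with a control antibody.

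The deposited result is 1 list of 4198 peaks called by the authors, each with a position on release 5 of the genome and a score, and with no value per library. Arm 2L has 658 of these peaks, 3R has 788 and the X has 789. No peak therefore has a replicate error, and the read depth is unknown. A gene without a peak is a gene at which none was called, not one shown to be free of Notch. Expression was not measured, so the larval tissues could not be checked against marker genes. Intervals below are exact (Clopper-Pearson) 95% binomial intervals. They cover counting error only and treat genes as independent.

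The gene table is on release 6, and its positions were moved to release 5 by a constant for each arm (0 bp for 2L, 4174278 bp for 3R, 105967 bp for X). The table gives no strand. The listed start of a gene is thus its lower coordinate, which is where transcription begins for genes of 1 strand and where it ends for those of the other. Results for the higher coordinate of each gene, called its other end here, stand beside those for the start.

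Most ribosomal protein genes had no peak nearby. A peak lay within 1 kb of the listed start of 13 of the 56 genes (23.2%, interval 13.0 to 36.4%). Over all 10335 genes of the 3 arms the same was true of 13.7%, a value inside that interval. At the other end 11 of 56 genes had a peak (19.6%, 10.2 to 32.4%), against 13.6% of all genes. Counting either end, 16 of 56 had a peak (28.6%, 17.3 to 42.2%), against 21.8% of all genes, again within the interval. A peak overlapped the gene itself at 10 of 56, against 16.4% of all genes.

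The share at the start rested on peaks that lay some way from it. With a window of 500 bp in place of 1 kb, 6 of 56 ribosomal protein genes had a peak (10.7%), against 10.6% of the other genes. At 250 bp the values were 7.14% and 8.70%. The listed start itself was inside a peak at 3 of 56 genes (5.36%) and at 5.43% of the other genes. Among the genes just inside the window, the nearest edge of a peak was 890 bp from RpL27A and 896 bp from RpL32. The genes just outside it were RpS14a at 1777 bp and RpL17 at 1922 bp, so the window of 2 kb added these and gave 15 of 56 (26.8%).

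**Figure D1:**
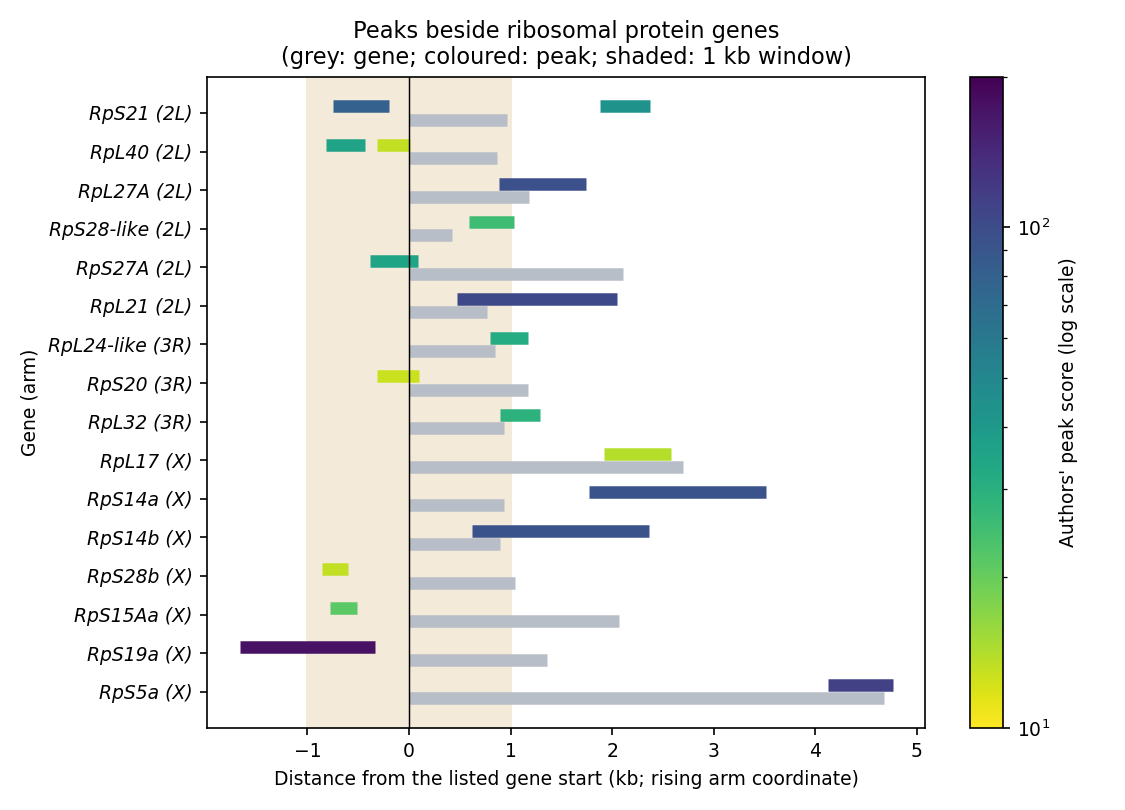
The 16 ribosomal protein genes with a peak within 1 kb of either end, drawn from the listed start (0) towards rising arm coordinates in kb. Grey bars are genes, coloured bars are peaks shaded by the authors' score, and the shaded band is the window of 1 kb around the listed start. Only RpL40, RpS27A and RpS20 have a peak across the listed start, and most other peaks lie beside the gene or across its other end.

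Among small subunit genes, RpS19a had the highest scoring peak of the set. Its protein is the counterpart of the human protein most often altered in Diamond-Blackfan anaemia. The peak runs on the X from 16530261 to 16531589 and has a score of 174.96, rank 205 of the 4198 peaks in the list. It ends 338 bp before the listed start of RpS19a and covers none of that gene.

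RpS5a, which encodes the broadly used copy of the S5 protein, had a peak at its other end alone. That peak runs on the X from 17041751 to 17042383 with a score of 112.59 (rank 499), and 86.4% of its bases lie in the gene. The listed start of RpS5a is 4130 bp from its edge, so the gene is not among the 13. RpS5b, its germline-enriched paralogue on 3R, had no peak centre closer than 77.3 kb.

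RpS14a and RpS14b are adjacent duplicate genes on the X, with listed starts 1156 bp apart. A single peak from 7829552 to 7831294, with a score of 92.92 (rank 629), lies within 1 kb of both genes' other ends and of the listed start of RpS14b. It covers the end of RpS14b and reaches into Ubr3, which encodes a ubiquitin ligase, and it covers no base of RpS14a. At 1743 bp it was the widest of the peaks beside ribosomal protein genes. Reads from near-identical copies may have been placed on either one, and how such reads were handled is not given in the sources used here.

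RpS21, whose loss causes overgrowth of the larval blood-forming organs, is flanked by a pair of peaks on 2L. The first runs from 2855326 to 2855874 (score 79.72, rank 761), ends 196 bp before the listed start and holds an end of the neighbour CG3104. The second runs from 2857951 to 2858439 (score 43.49, rank 1414), beyond the other end and inside CG2991. Neither overlaps RpS21.

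RpS27A encodes ubiquitin fused to a small subunit protein, so it supplies both a ribosomal protein and the tag for protein degradation. Its peak on 2L from 10407964 to 10408437 (score 34.68, rank 1701) spans the listed start and also an end of Ip259 and of Ir31a. RpS20 on 3R had a weak peak across its listed start, from 16647587 to 16648003 (score 12.78, rank 3385). That was the lowest score in the set, and the peak overlaps no other gene of the table.

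The remaining peaks beside small subunit genes had scores below the median of the list (26.1). The peak by RpS28-like on 2L, from 9437390 to 9437835 (score 25.24), lies outside that gene and across an end of numb, which encodes an inhibitor of Notch signalling. The peak by RpS15Aa on the X, from 13228891 to 13229158 (score 21.41), ends 512 bp before the listed start. The peak by RpS28b on the X, from 9447803 to 9448056 (score 13.21), ends 600 bp before it. Neither of these last peaks overlaps a gene of the table, and they were the narrowest of the set at 268 and 254 bp.

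Among large subunit genes, RpL21 and RpL27A had the peaks with the highest scores. The peak at RpL21 runs on 2L from 22247585 to 22249159 (score 102.99, rank 562). It covers the other end of the gene and no other gene of the table. RpL21 lies on 2L between 20 and 25 Mb, a stretch where peaks were common. There 40.9% of the 443 listed starts had a peak within 1 kb, against 13.9% on the whole arm. The peak at RpL27A, on 2L from 4458076 to 4458933 (score 96.01, rank 604), covers the gene's other end and also an end of mRpL27, which encodes a protein of the mitochondrial ribosome.

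RpL40 encodes ubiquitin fused to a large subunit protein and had a pair of peaks before its listed start. The stronger, on 2L from 4226878 to 4227267 (score 35.18, rank 1672), lies 432 bp away across an end of CG3702. The weaker, from 4227386 to 4227710 (score 13.23, rank 3317), reaches 11 bp past the listed start. RpS27A, the other ubiquitin fusion gene of the set, also had a peak across the listed start (score 34.68), which it shares with Ip259 and Ir31a. It lies on 2L between 10 and 15 Mb, where the placement of genes was less sure. A listed start was inside a peak at 3 of 56 ribosomal protein genes (5.36%) and at 5.43% of other genes. No test was made of these 2 genes as a pair.

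RpL24-like, related to an assembly factor of the large subunit in yeast, and RpL32, whose transcript is often used as a reference in expression assays, had similar peaks on 3R. The first, from 7257260 to 7257638 (score 31.7), covers 45 bp of RpL24-like and an end of CG5276. The second, from 25871847 to 25872236 (score 29.19), covers 37 bp of RpL32 and an end of CG7943. Only 11.9% and 9.49% of the bases of these peaks lie in the ribosomal protein gene. RpL17 on the X had a peak wholly inside the gene, from 6637492 to 6638152 (score 14.02, rank 3200), which also covers the gene of a small nucleolar RNA (snoRNA), snoRNA:Psi28S-1232.

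**Figure D2:**
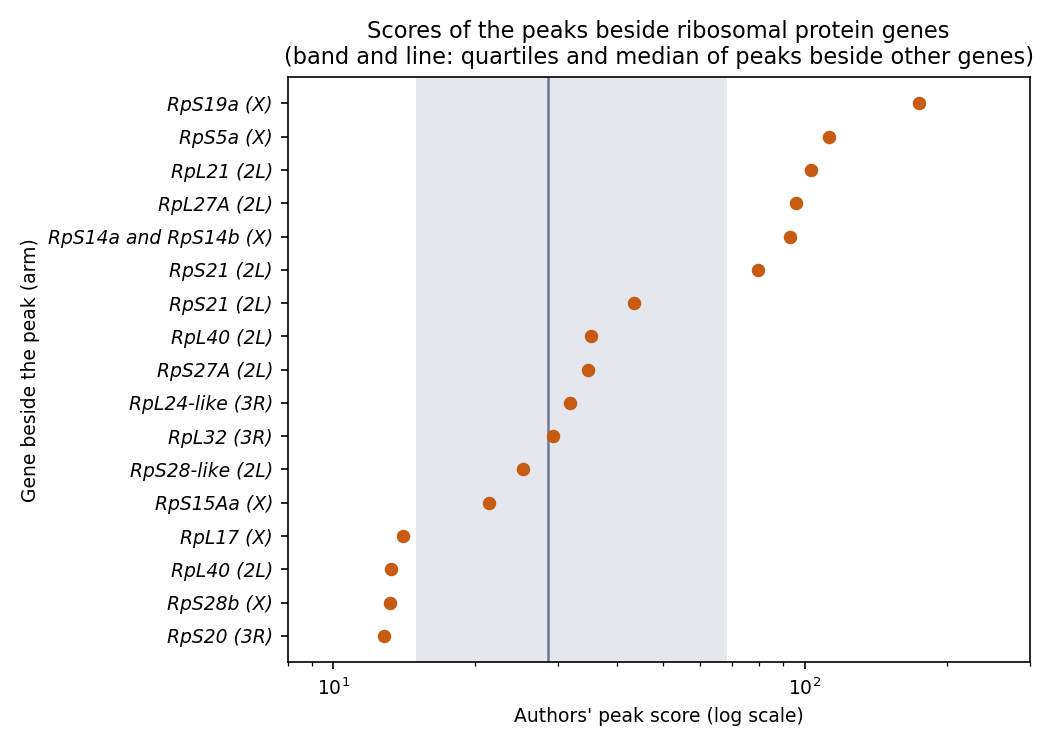
Authors' peak score (log axis) of the 17 peaks within 1 kb of either end of a ribosomal protein gene, each labelled with the gene and arm. The line and band give the median (28.6) and quartiles (15.0 and 68.1) of the 1424 peaks beside other genes, some of them also beside a ribosomal protein gene. The scores of the 17 peaks run from 12.78 at RpS20 to 174.96 at RpS19a.

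The scores of these peaks were mixed, and none reached the highest of the list. Within 1 kb of the listed starts lay 14 peaks, since RpL40 had a pair, with scores from 12.78 to 174.96 and a median of 33.2 (interval of the median 13.2 to 96.0). Peaks at the starts of other genes, which include any of the 14 also within 1 kb of such a start, had a median of 29.4. Its interval was 26.6 to 32.7 (n = 1192 peaks), and the value is inside that of the 14 peaks. Of the 14 peaks, 5 were in the highest scoring 25% of the list (35.7%, 12.8 to 64.9%), against 29.9% of the peaks at other starts. Their median width was 432 bp (range 254 to 1743 bp), against 564 bp at other starts. The labels and headers do not name the MACS statistic behind the score, which is why scores are only ranked and compared within the list.

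Peaks beside ribosomal protein genes often also lay beside a neighbour. Of the 14 peaks at listed starts, 9 overlapped another gene of the table, and each of these 9 held an end of that gene. A base of the ribosomal protein gene was covered by 8 of the 14. Only 3 (at RpL40, RpL21 and RpS20) covered the ribosomal protein gene and no other gene, 4 covered only a neighbour (at RpS21, RpL40, RpS28-like and RpS19a), and 2 covered no gene. An end of any gene, the ribosomal protein gene itself included, was inside 12 of the 14 peaks (85.7%, 57.2 to 98.2%). For peaks at other starts the share was 58.0% (55.1 to 60.8%). Those peaks include any of the 14 that also lie within 1 kb of another gene's start. The counts of neighbours were not made for them. For the 9 peaks that also overlap a neighbour, the list does not say to which gene the peak belongs.

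Ribosomal protein genes are short and closely packed, and the part of either feature in these counts was not tested. Their median length in the table was 1303 bp (range 304 to 4677 bp), against 1756 bp for the other genes. Another gene had an end within 1 kb of the listed start at 48 of 56 ribosomal protein genes (85.7%, 73.8 to 93.6%), against 68.6% of the other genes. Where such a neighbour was present, 12 of 48 ribosomal protein genes had a peak (25.0%, 13.6 to 39.6%), against 15.9% of other genes. Without one, 1 of 8 had a peak (12.5%, 0.316 to 52.7%), against 8.61%. The gene with a peak and no such neighbour was RpS15Aa. Among other genes no longer than the longest ribosomal protein gene, the share with a peak at the start was 11.9%.

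Many ribosomal protein genes carry snoRNA genes in their introns, whose products guide the modification of ribosomal RNA. Of the 56 genes 16 held 45 snoRNA genes, with 14 in RpS5a alone. Of these 16 hosts 2 had a peak at the listed start (12.5%, 1.55 to 38.3%), while 11 of the 40 genes without a snoRNA did (27.5%, 14.6 to 43.9%). These intervals overlap. Among other genes 9 of 38 snoRNA hosts had a peak (23.7%, 11.4 to 40.2%). The share of those without a snoRNA was 13.6%, so the order was the opposite, but the value is inside that interval. At either end the counts were 4 of 16 (interval 7.27 to 52.4%) and 12 of 40 (interval 16.6 to 46.5%), closer in share than at the start. The share of all genes, 21.8%, is inside both intervals. Among other genes a peak at either end was found at 12 of 38 hosts (31.6%, 17.5 to 48.7%). For those without a snoRNA the share was 21.7%, inside that interval. The 4 ribosomal protein hosts with a peak at either end were RpL27A, RpS20, RpL17 and RpS5a.

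The genes varied by arm, subunit and copy number, with wide intervals throughout. On 2L 6 of 19 had a peak at the start (31.6%, 12.6 to 56.6%), against 13.9% of all genes there. On the X the count was 4 of 14 (28.6%, 8.39 to 58.1%), against 16.1%. On 3R, the arm with the most ribosomal protein genes, it was 3 of 23 (13.0%, 2.78 to 33.6%), against 12.0%. On each of the 3 arms the interval includes the share of all genes. With either end counted, the X had the most, with 7 of 14 (50.0%, 23.0 to 77.0%), against 26.7% of all genes. On 2L and 3R the counts stayed at 6 of 19 and 3 of 23, against 20.6% and 19.7%.

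**Figure D3:**
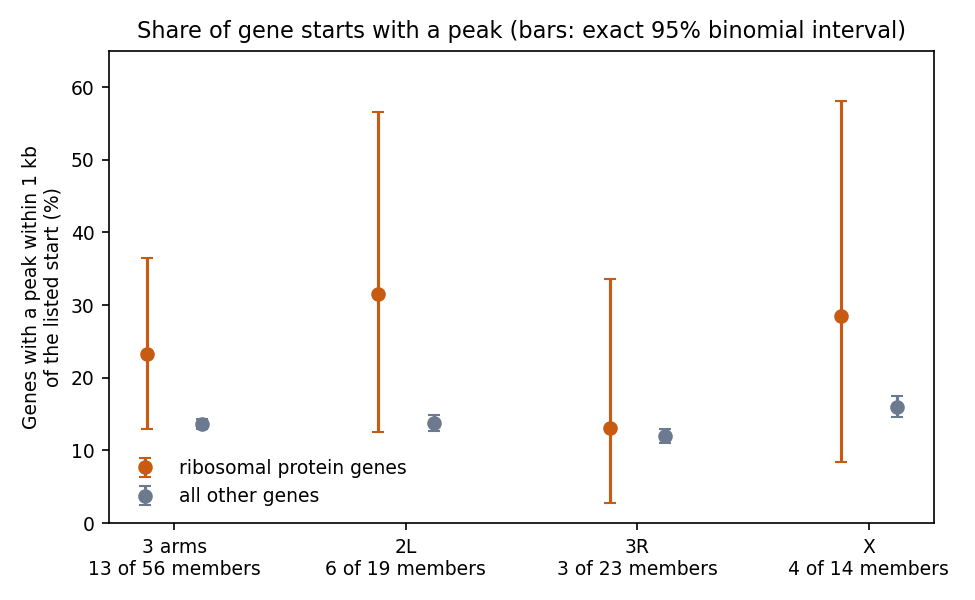
Share (%) of genes with a peak within 1 kb of the listed start, for ribosomal protein genes and all other genes, over the 3 arms together and for each arm. Bars are exact 95% binomial intervals. On every arm the interval of the ribosomal protein genes (for example 12.6 to 56.6% on 2L) includes the share of the other genes.

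Small subunit genes had a peak at the listed start in 8 of 26 cases (30.8%, 14.3 to 51.8%) and large subunit genes in 5 of 30 (16.7%, 5.64 to 34.7%), against 13.7% of all genes. The interval of the small subunit genes starts just above that share, as 1 of several groupings counted and with no test made. At the other end the counts were close, with 5 of 26 (19.2%) and 6 of 30 (20.0%), against 13.6%. At either end they were 10 of 26 (38.5%, 20.2 to 59.4%) and 6 of 30 (20.0%, 7.71 to 38.6%), against 21.8%, which both intervals include. A gene was taken to have a paralogue if its symbol matched another once a final a, b or -like was removed, as for RpS5a and RpS5b. Of the 20 such genes 6 had a peak at the start (interval 11.9 to 54.3%). Of the 36 others 7 did (19.4%, 8.19 to 36.0%). RpL37-1, with a number in place of a letter, was counted among the 36. The share of all genes, 13.7%, is inside both intervals. The intervals of small and large subunit genes overlap at each position, as do those of genes with and without a paralogue at the start.

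Paralogues differed in their distance from a peak, and only the adjacent RpS14 genes had the same one. RpS19a had the strongest peak of the set, while the nearest peak centre to RpS19b on 3R was 8.34 kb from its listed start. RpS28b and RpS28-like had weak peaks and RpS28a on 3R had no peak centre within 23.9 kb of its listed start. Both S10 genes were without a peak, at 16.5 kb for RpS10a and 10.4 kb for RpS10b, as were both L34 genes, at 5.90 kb for RpL34a and 18.5 kb for RpL34b. RpL24-like had a peak and RpL24 was the most remote of all 56 genes, at 95.5 kb.

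The 43 genes without a peak at the listed start ranged widely in their distance from one. Measured to the centre of the nearest peak, the median over all 56 genes was 10.5 kb (interval of the median 6.05 to 14.6 kb), against 11.0 kb (10.6 to 11.4 kb) for the other genes. The nearest peak was more than 20 kb away from 15 genes (26.8%), against 33.7% of the other genes, and more than 50 kb away from 7 (12.5%), against 12.3%. Those 7 were RpL24, RpL37-1, RpS5b, RpL22, RpL35A, RpL5 and RpL4, of which all but RpS5b are large subunit genes. RpS3 and RpL36 had no peak centre closer to the listed start than 13.0 and 8.25 kb. RpS6, the substrate of the growth-regulated S6 kinase, had none closer than 9.24 kb.

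**Figure D4:**
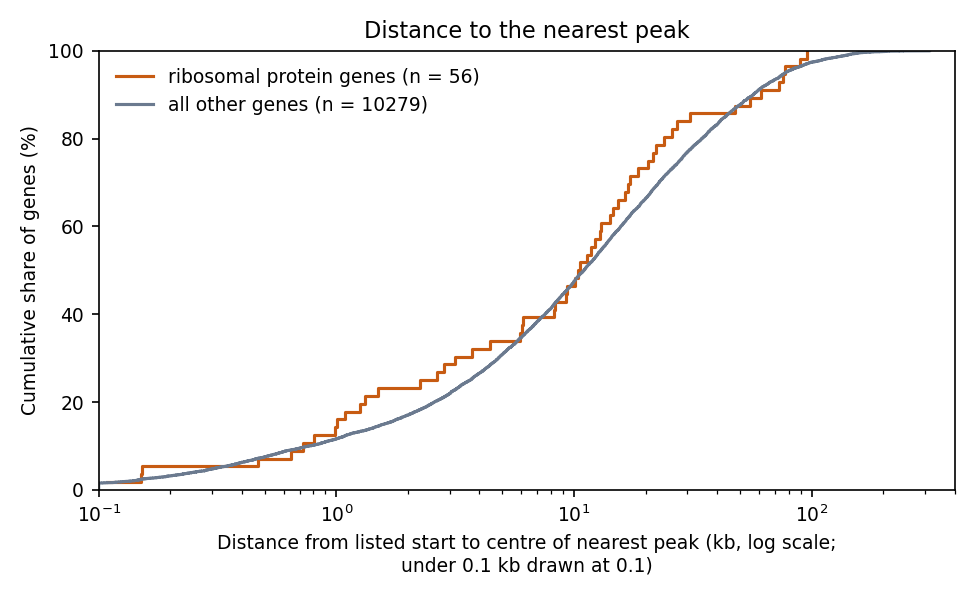
Cumulative share (%) of genes by distance in kb (log axis) from the listed start to the centre of the nearest peak, for the 56 ribosomal protein genes and the 10279 other genes. The medians were 10.5 kb for the ribosomal protein genes and 11.0 kb for the others. In the same order, the lower quartiles were 2.55 and 3.66 kb and the upper quartiles 20.7 and 27.9 kb. Beyond 50 kb lay 12.5% and 12.3% of the genes.

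Coverage by peaks was also counted in bases. Peaks covered 4.53% of the bases within 1 kb of the listed starts of ribosomal protein genes, against 4.27% at other genes. Within 500 bp the order was turned, at 3.18% and 4.84%. Among the distance ranges given here, coverage at ribosomal protein genes was highest from 1 to 3 kb above the listed start, towards rising coordinates. It was 7.40% there, against 2.70% at other genes. In narrower bins the highest value at ribosomal protein genes, 10.7%, lay just inside the window of 1 kb on that side. On the lower side, from 1 to 3 kb below the start, it was 0.836%, against 3.13%. At 3 to 5 kb on either side coverage was 2.56% and 2.90%. Since the table gives no strand, these sides are not upstream and downstream, and with 56 genes a few wide peaks weigh on each value.

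Other genes of protein synthesis and turnover were counted in the same way, with lists set by symbol. Mitochondrial ribosomal protein genes had a peak at the start in 9 of 44 cases (20.5%, 9.80 to 35.3%), and the highest scores were at mRpS25 (223.73), mRpS7 (176.22) and mRpL3 (174.23). Initiation factor genes had one in 4 of 23 (17.4%, 4.95 to 38.8%), led by eIF5 (291.72, rank 29 of the list) and eIF4H1 (263.04, rank 45). For elongation factors the count was 2 of 4, at eEF1delta (31.99) and eEF2 (20.39). All these scores are the highest among the peaks within 1 kb of the listed start of the gene.

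Proteasome subunit genes had a peak at the start in 4 of 28 cases (14.3%, 4.03 to 32.7%), with none scoring above 38.47 (Rpt3). RNA polymerase subunit genes had one in 4 of 21 (19.0%, 5.45 to 41.9%), led by Polr2I (151.35). A list drawn up for ribosome assembly had one at 3 of 9 genes (33.3%, 7.49 to 70.1%), namely RIOK2 (210.61), peng (47.92) and Surf6 (10.14). Its 9 symbols include pes, which in this species names a scavenger receptor gene and not an assembly factor. The peak centre nearest to the listed start of pes was 9.96 kb away. The interval of each list includes the 13.7% of all genes, and each overlaps that of the ribosomal protein genes. At either end, 6 of the 9 genes on the assembly list, pes included in the 9, had a peak (66.7%, 29.9 to 92.5%). The share of all genes, 21.8%, is outside that interval. This is 1 of 6 lists counted at 3 positions, and no test was made.

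**Figure D5:**
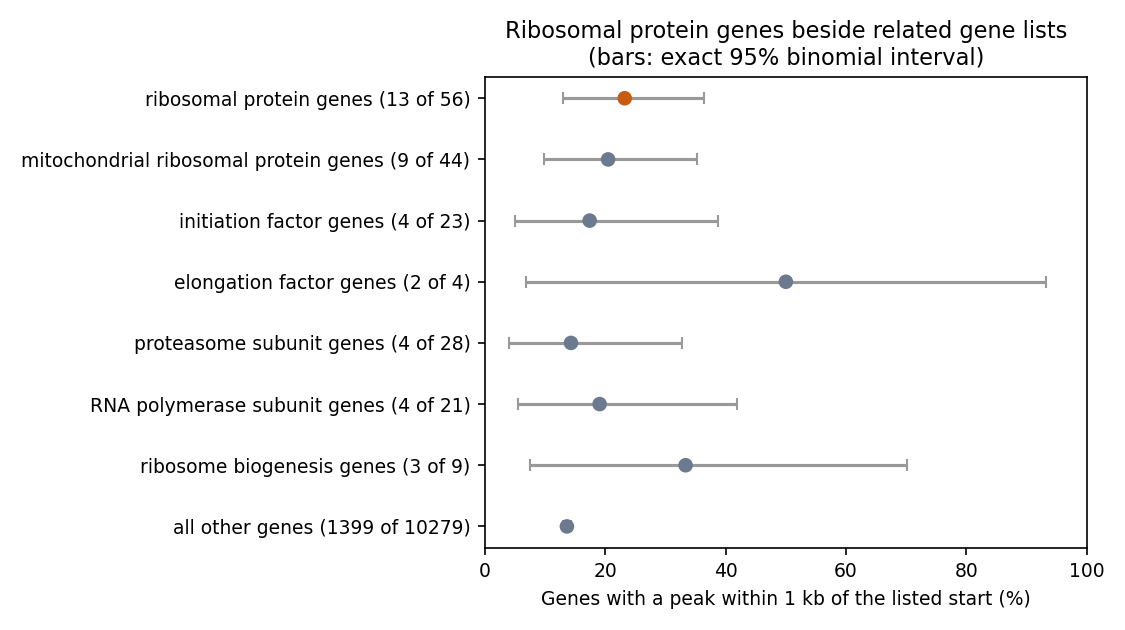
Share (%) of genes with a peak within 1 kb of the listed start for ribosomal protein genes, 6 related lists and all other genes, with exact 95% binomial intervals as bars and counts beside the names. The intervals of all lists overlap, from 14.3% for the 28 proteasome genes to 50.0% for the 4 elongation factor genes.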

How the data were processed

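Per the file headers, the authors' list is on FlyBase release 5 and names MACS as the source of its peaks. The tools per the submitters' processing notes were MACS2, BWA and CASAVA (versions 1.7.0.2 and 1.7.0.3). Settings, the threshold, the use of input and any pooling of replicates were not stated there. The only values are the authors' deposited score of each peak.

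Genes came from the RefSeq table of assembly Release 6 plus ISO1 MT, moved by 1 constant per arm. Of 10430 genes on the 3 arms, 95 fell outside the span of the release 5 peaks and were left out. The constants were checked against the peaks: on every arm the share of starts with a peak was higher there than with genes moved by 2 to 50 kb either way (13.9% against at most 11.7% on 2L, 12.0% against 9.59% on 3R, 16.1% against 12.9% on the X). It was also highest in 14 of 16 blocks of 5 Mb. The other blocks were 2L from 10 to 15 Mb, with 5 of the 56 genes, and the end of the X, with 0. Among the 14, the margin was small on 2L from 15 to 20 Mb (9.16% against at most 9.01%) and on 3R from 0 to 5 Mb (14.4% against 13.7%). Moves under 2 kb were not tried, so smaller errors of placement were not checked.

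A gene was counted when a peak overlapped its listed start by 1 kb either way. Genes named are all those with such a peak at either end, and up to 3 per related list. The 3 with a peak at the other end alone (RpL17, RpS14a and RpS5a), and the genes without a peak, were named after their values were seen. Members and lists were chosen with earlier results of these data known. No test was run, since the list has no value per library. Counting was tested on simulated starts (0 wrong calls in 20 sets of 600). A planned search for promoter motifs was not run, and distances carry no strand. Python 3.11.15, numpy 2.4.6, pandas 2.3.3, scipy 1.17.1 and matplotlib 3.10.9 were used.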

Additional observations from a re-analysis of the deposited data

How the results depend on the processing

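Of 34 values computed under alternatives, 31 stayed inside the interval of the reported value and 3 moved out of it. Some of the 31 could not move, since they changed only the comparison genes. These were protein-coding genes only (for share and distance), the limit on gene length, starts at 1 position counted once, and leaving out histone genes. Merging peaks within 1 kb of each other could not move the share either. A gap that small cannot hold the whole window of 1 kb either way. The 3 that moved are as follows. The share of starts with a peak was 10.7% at a window of 500 bp and 7.14% at 250 bp, against 23.2% at 1 kb. The distance to the nearest peak was 18.1 kb among the higher scored peaks of the list, which are fewer by construction, against 10.5 kb. The share ranged from 7.14% to 30.3% over 19 alternatives and was above that of the other genes in 18, the exception being 250 bp. At 500 bp the values were nearly equal, at 10.7% and 10.6%. The median score ranged from 29.2 to 37.6 over 8, above that of peaks at other genes in 6 and below it in 2. The median distance was below that of the other genes in 5 of 7 alternatives and above it in 2. Alternatives on the gene's other end, the whole gene, histone genes and blocks of doubtful shift were chosen after seeing the data. No paired analysis was possible because peaks have a single score with no separate value for each library, and so no replicate could be left out. Depth is unknown.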
